A study of Mus musculus with 96 samples.

Results

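Olivocochlear and motor lineage transcription factors were followed in single neurons of the lateral superior olive (LSO), a nucleus of the auditory brainstem. The set comprised 9 genes of the 38887 in the table: the LIM homeobox genes Isl1 and Lhx4, the GATA genes Gata2 and Gata3, the T-box genes Tbx2, Tbx3 and Tbx20, and the homeobox genes Phox2a and Nkx6-1. Members were found by matching Ensembl identifiers to symbols in Gencode vM21, and all 9 had a row. Patch-seq joins a whole-cell recording with RNA sequencing of the cytoplasm drawn into the same pipette, so that each neuron gave 1 library. The mice were juvenile C57BL/6J animals of both sexes, with no transgene and no treatment, studied in the second postnatal week, around hearing onset. Neurons were grouped by their labelled firing pattern into Onset and Sustained neurons, which together are the principal LSO neurons (pLSOs), and delayed-firing lateral olivocochlear neurons (LOCs). Negative controls were pipettes lowered into the slice and withdrawn without harvesting a cell.

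The labels held 86 neurons and 10 negative controls, of which 8 libraries were left out because their labels and an earlier comparison with the study's own tables disagreed. This left 41 Onset and 11 Sustained neurons, hence 52 pLSOs, 28 LOCs and 8 negative controls. No label ties a neuron to an animal, so each group counted as 1 sample. Shares of neurons are therefore given with exact 95% binomial intervals, which cover counting error only, and no p-value was computed over neurons. A neuron counted as having a gene at 1 TPM or more, where TPM, transcript abundance scaled to a common library total, is the deposited unit.

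LOCs send axons to the cochlea, where they end beneath the inner hair cells. They belong to the efferent lineage of the hindbrain, which shares its progenitor zone with facial branchial motor neurons. Isl1 is a general factor of motor neurons and binds DNA as part of LIM-domain complexes. Gata2 and Gata3 act in the early specification of inner ear efferents, Nkx6-1 patterns ventral progenitors, Tbx20 and Phox2a belong to cranial motor programmes, and Lhx4 works with Lhx3 in spinal motor neurons. Tbx2 and Tbx3 are mostly transcriptional repressors.

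Isl1 and Gata3 were the members that set LOCs apart. Isl1 was found in 22 of 28 LOCs and in 0 of 52 pLSOs. Gata3 was likewise found in 22 of 28 LOCs, and in 7 of 52 pLSOs, mostly at 1 to 4 reads. Gata2, Nkx6-1 and Tbx20 were each found in 4 or 5 LOCs and in no pLSO. Rounding could hide reads of Nkx6-1 and Tbx20 in pLSOs. By difference in share, Gata2 and Nkx6-1 shared rank 422 and Tbx20 stood at rank 714 of 10319 genes. How many other genes were found only in LOCs was not counted. Lhx4 was found in both classes, and Phox2a, Tbx2 and Tbx3 were near or at 0 in neurons.

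For 3 members listed in LOCs and in no pLSO, the bases before the RefSeq transcription start (GRCm38.p6) are shown as a description. Bases annotated as exon in Gencode vM21 were left off. Capitals mark the letters TAAT or ATTA, the core bound by homeodomain proteins such as Isl1 and Nkx6-1.
Isl1, chr13:116309690-116309938, minus strand: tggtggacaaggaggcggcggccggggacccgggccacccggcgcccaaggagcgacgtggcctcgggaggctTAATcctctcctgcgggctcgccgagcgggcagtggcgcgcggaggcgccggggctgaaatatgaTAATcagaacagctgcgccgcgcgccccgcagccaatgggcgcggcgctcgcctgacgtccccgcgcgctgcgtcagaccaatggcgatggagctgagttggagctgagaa
Gata2, chr6:88193641-88193890, plus strand: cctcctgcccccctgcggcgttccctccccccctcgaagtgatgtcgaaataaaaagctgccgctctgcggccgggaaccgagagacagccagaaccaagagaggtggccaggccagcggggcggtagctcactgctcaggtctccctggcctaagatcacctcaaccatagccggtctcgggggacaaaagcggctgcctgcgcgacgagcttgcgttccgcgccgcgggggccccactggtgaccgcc
Tbx20, chr9:24774304-24774553, minus strand: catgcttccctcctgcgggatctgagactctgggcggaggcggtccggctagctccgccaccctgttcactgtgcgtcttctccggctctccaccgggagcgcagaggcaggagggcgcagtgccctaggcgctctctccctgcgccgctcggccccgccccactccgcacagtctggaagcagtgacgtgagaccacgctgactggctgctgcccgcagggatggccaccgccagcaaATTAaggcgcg
The Isl1 stretch held 2 matches, the Tbx20 stretch 1 and the Gata2 stretch 0. Over all 32851 promoters of the table, 54.9% of the 250 bases before the start held this core on either strand. Neither AGATAA, a form of the GATA factor motif, nor AGGTGT, a T-box motif, was present on either strand of the 3 stretches. Over all promoters, 9.99% and 11.8% held them. Other forms were not searched. The Isl1 stretch holds TGATAA, which differs from AGATAA in its first base, at its second capitalised core. These letters are descriptions and no binding was measured. For Gata3 and Nkx6-1 the 250 bases before the RefSeq start lay inside annotated exons, so none are printed. Tbx2 and Tbx3 had no entry.

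Before the members were compared, the scale of the table was examined, because it decides how many reads stand behind a value. In low values of the first 3000 rows, 99.7% of 13962 values were whole multiples of the value of 1 read, within 0.5 TPM plus 0.2% of the value, where the spacing of the multiples alone would give 13.7%. The value of 1 read fell along the rows of the table by a whole-number divisor and did not follow the length of each gene. The divisor was 1 for Tbx2, whose annotated exons span 3626 bases, and 565 for Isl1, whose exons span 3959 bases. In the median neuron, 1 read was thus worth 51.9 TPM for Tbx2, 8.65 TPM for Phox2a, 6.49 TPM for Gata2, 5.77 TPM for Gata3 and 0.0919 TPM for Isl1. A level of 1 TPM therefore meant a single read or less for Gata2 and Gata3 in almost any neuron, and for Isl1 it meant several reads. TPM of different members could not be set side by side as deposited. Estimated reads, and values recomputed with the annotated exon length of the gene concerned, called rescaled, are given where levels between genes are compared. Estimated reads are less exact for Isl1, Nkx6-1, Tbx20 and Lhx4, since the divisor is fitted and small TPM are rounded. The rows of these genes also lie beyond the 3000 rows checked for whole reads.

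Estimated depth was 633275 reads in the median LOC (276264 to 1616921) and 794428 reads in the median pLSO (170131 to 2956737). LOCs had a median of 2394 detected genes and pLSOs 2560. Negative controls held 5289 to 131053 reads. The labelled cell types were checked on marker genes. Ucn, the urocortin peptide of LOCs, was in 23 of 28 LOCs and 0 of 52 pLSOs, and the pLSO marker Spp1, encoding osteopontin, was in 1 LOC and 50 pLSOs. The counts in LOCs and pLSOs were 26 and 15 for Calca, 23 and 0 for Col4a3, and 5 and 0 for Chat. Among other pLSO markers they were 13 and 50 for Lpgat1, and 8 and 45 for both Maf and Igsf3. Kcnh7 had 1 and 40, and Tenm2 had 2 and 32. Ucn was also in 2 of the 8 negative controls and Spp1 in 4. The LOC libraries cell_57 and cell_76 had none of Calca, Ucn, Col4a3 or Chat, and they had 2 and 1 of the 6 pLSO markers at 1 TPM each. The shares of Isl1 and Gata3 are given without these 2 libraries as well.

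**Figure D1:**
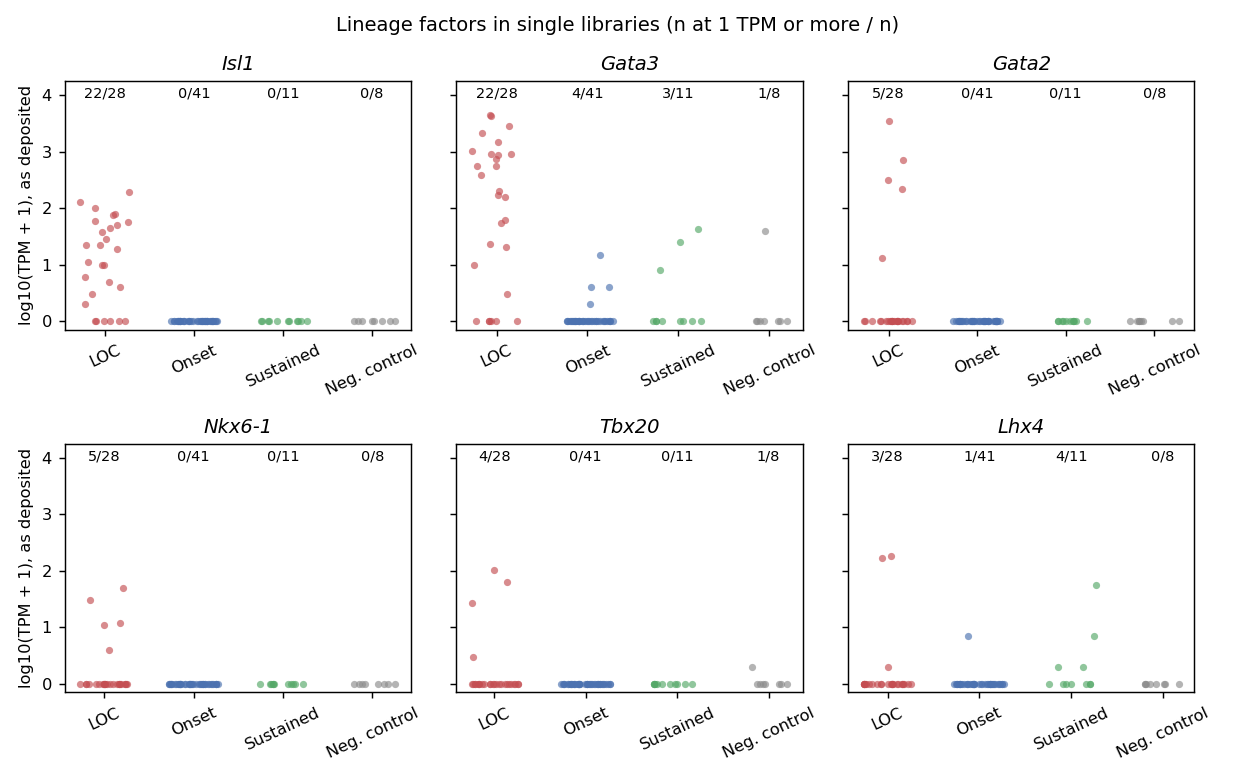
TPM of 6 members in every library kept, on a log10(TPM + 1) axis, with each point a library, points spread sideways for visibility, and n detected over n above each group. Isl1, Gata2 and Nkx6-1 lie above 0 in LOCs and in no other group, whereas Gata3 and Lhx4 also have points among the Onset and Sustained neurons.

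Isl1 (ENSMUSG00000042258, minus strand of chromosome 13, bases 116298281 to 116309689) encodes a LIM homeodomain factor needed for motor neuron identity. Its lowest value in the 28 LOCs was 0 TPM, its median 14 TPM and its highest 191 TPM. In the 52 pLSOs and the 8 negative controls every value was 0. The groups overlapped only through the 6 LOCs at 0. The mean in LOCs was 33.8 ± 45.9 TPM (SD over neurons, n = 28). The share of LOCs with Isl1 was 78.6% (59.0 to 91.7), and 0 of 52 pLSOs allows a share of up to 5.77% if a limit of 3 neurons is taken, or 6.85% by the exact interval. The values above 0 rested on an estimated 11 to 2428 reads, with a median of 193.

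The 6 LOCs without Isl1 were cell_57, cell_64, cell_71, cell_76, cell_80 and cell_84. Because values under 0.5 TPM were rounded to 0, a library listed at 0 may hold a few Isl1 reads: up to 16.4 in a LOC and up to 32.1 in a pLSO, depending on the library. Of the 22 LOCs with Isl1, 20 were above the largest number that rounding could hide in any pLSO. Cells cell_57 and cell_76 are the LOC libraries that lacked LOC markers, and without them Isl1 was in 22 of 26 LOCs (84.6%) and Gata3 in 20 of 26 (76.9%). The other 4 expressed the LOC neuropeptide gene Calca at 349 to 4484 TPM and Ucn at 11 to 254 TPM.

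Gata3 (ENSMUSG00000015619, minus strand of chromosome 2, bases 9857078 to 9890034) encodes a zinc finger factor of the efferent lineage. In LOCs it ranged from 0 TPM through a median of 186.5 TPM to 4463 TPM, with a mean of 779.6 ± 1232 TPM (SD over neurons, n = 28). Its share of LOCs was 78.6% (59.0 to 91.7). Of the 22 LOCs with Gata3, 18 held an estimated 15 to 1518 reads. The other 4, cell_59, cell_68, cell_76 and cell_81, stood at 9, 22, 2 and 20 TPM, which correspond to 1 or 2 reads each. The high LOCs thus stood far above the single-read level, and the low ones did not.

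In pLSOs, Gata3 was listed in 4 Onset neurons at 1, 3, 3 and 14 TPM and in 3 Sustained neurons at 7, 24 and 42 TPM. These values correspond to 1, 1, 3 and 2 reads in the Onset neurons and to 1, 4 and 15 reads in the Sustained neurons. Negative control NC8 held 39 TPM of Gata3, which was 1 read in that shallow library. The share of pLSOs with Gata3 was 13.5% (5.59 to 25.8) at 1 TPM, against 1 of 8 negative controls. With at least 5 estimated reads, a threshold chosen after the data were seen, Gata3 was in 18 of 28 LOCs (64.3%, 44.1 to 81.4) and in 1 of 52 pLSOs (1.92%, 0.0487 to 10.3). That neuron was cell_45, a Sustained neuron, which also held 69 TPM of Slc5a7, the choline transporter. It had none of Calca, Ucn, Col4a3 or Chat and 4 of the 6 pLSO markers. With 6276 detected genes it also had the most of any neuron kept. The 10 LOCs at 22 TPM or less lay within the range of the pLSOs kept, and the 18 others lay above every pLSO kept. Gata3 overlaps 3 other annotated genes; 9230102O04Rik on the same strand was in 2 LOCs at a mean of 0.107 TPM, and 4930412O13Rik and Gm13256 on the opposite strand were at 0 in all neurons.

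A gene was called where its share of neurons differed by at least 25 percentage points between LOCs and pLSOs. Isl1 (78.6 points) and Gata3 (65.1 points) were called higher in LOCs, as were 1.8% of the 10319 genes detected in at least 5% of neurons. Ordered from the largest excess in LOCs, Isl1 was at rank 3 and Gata3 at rank 6 of these genes. Gata2 and Nkx6-1 shared rank 422, and Tbx20 was at rank 714. No member was called higher in pLSOs, where the background was 3.06%. The 6 members that passed the 5% minimum were Isl1, Gata3, Lhx4, Gata2, Nkx6-1 and Tbx20, while Phox2a, Tbx2 and Tbx3 did not. By the second rule, a mean log2(TPM + 1) at least 1 higher, Isl1 (3.55), Gata3 (6.04) and Gata2 (1.47) were called in LOCs, with a background of 4.68%, and no member was called in pLSOs, with a background of 6.99%. Tbx20 at 0.68, Nkx6-1 at 0.70 and Lhx4 at 0.31 stayed under it. Below Isl1 and Gata3 these calls turned on the scale. On the rescaled values Gata2 stood at 0.96 and was no longer called, whereas Nkx6-1 stood at 1.25 and was. Gata2 also fell to 0.90 with a pseudocount of 10 TPM, and with a pseudocount of 0.1 TPM Nkx6-1 (1.27) and Tbx20 (1.13) passed. Over all 9 members the median difference in share was 14.3 percentage points, beside -2.20 over the genes tested.

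**Figure D2:**
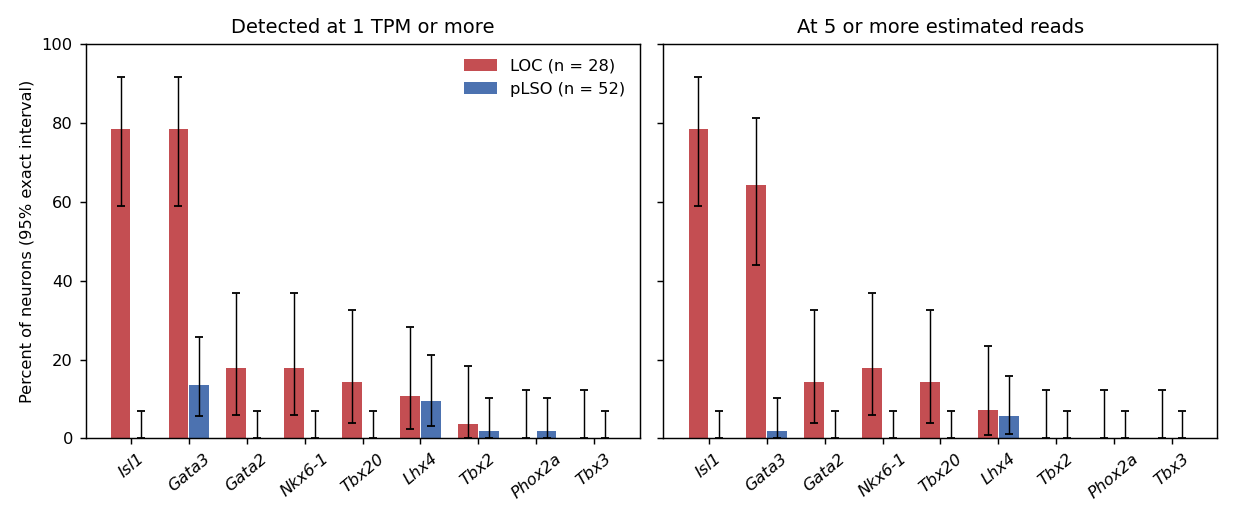
Percent of LOCs and pLSOs with each member, at 1 TPM or more on the left and at 5 or more estimated reads on the right, with bars for shares and lines for 95% exact binomial intervals. Gata3 falls from 13.5% to 1.92% of pLSOs at 5 reads. Isl1 stays at 78.6% of LOCs, where its listed values already rested on at least 11 reads, so this cut could not lower it.

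Isl1 and Gata3 were compared within LOCs. Both were present in 18 of 28 LOCs, Isl1 alone in 4, Gata3 alone in 4 and neither in 2. With at least 5 reads the 4 numbers were 15, 7, 3 and 3. As deposited, Gata3 exceeded Isl1 in 15 of the 18 neurons with both, by a median ratio of 24.4. Rescaled to gene length, Isl1 exceeded Gata3 in 13 of the 18, with a median ratio of Gata3 to Isl1 of 0.387. The rescaled values of Isl1 rest on a fitted divisor beyond the rows checked for whole reads. On this rescaled scale the mean in LOCs was 356.6 ± 490.3 for Isl1 and 140.6 ± 203.8 for Gata3 (SD over neurons, n = 28), so that the order of these 2 factors turned around with the scale, within a spread wider than either mean. Within LOCs the correlation of their log2(TPM + 1) was 0.07 (Pearson) and 0.08 (Spearman) over 28 neurons of different depth, and 0.15 by Pearson without the 2 neurons farthest from the median of Isl1. The neurons share no unit of replication, so no p is given.

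Gata2 (ENSMUSG00000015053, plus strand of chromosome 6, bases 88193891 to 88207032) is the paralog of Gata3 that precedes it in hindbrain development. It was listed in 5 LOCs, at 12, 222, 315, 707 and 3554 TPM, and in no pLSO or negative control. The share was 17.9% (6.06 to 36.9) of LOCs. These values correspond to 4, 43, 47, 56 and 451 reads, in cell_67, cell_73, cell_74, cell_79 and cell_60. A single neuron, cell_60, made up 73.9% of the summed Gata2, and the mean of 171.8 TPM fell to 46.5 TPM without it. All 5 neurons also had Isl1 and Gata3, so Gata2 was seen in 5 of the 18 LOCs with both factors and in 0 of the other 10.

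**Figure D3:**
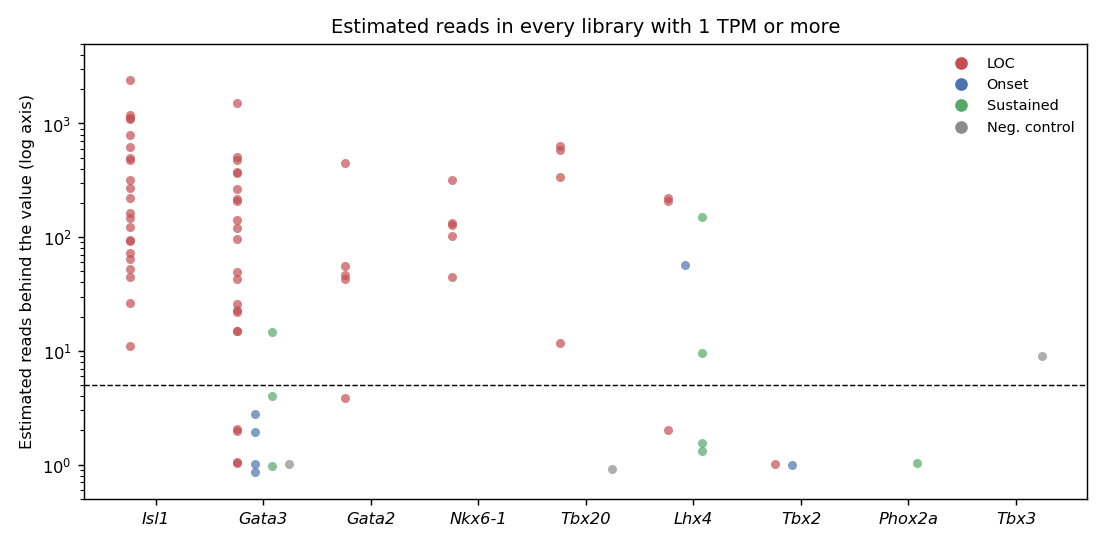
Estimated reads behind each value of at least 1 TPM, on a log axis, for every member and library kept, with a dashed line at 5 reads. Isl1, Nkx6-1 and Tbx20 in LOCs all stand above the line, whereas both values of Tbx2, the value of Phox2a and 6 of 7 pLSO values of Gata3 lie below it.

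Nkx6-1 (ENSMUSG00000035187, minus strand of chromosome 5, bases 101658139 to 101664996) is a homeobox gene of ventral progenitors that some motor neurons keep. It was listed in 5 LOCs at 3, 10, 11, 29 and 49 TPM and in no pLSO or negative control. Though small in TPM, these values rested on an estimated 45, 102, 134, 129 and 320 reads. Rounding could hide up to 22.55 reads in a pLSO listed at 0, fewer than in each of the 5 LOCs. None of the 5 neurons had Gata2, and 4 of them had Isl1 and 4 had Gata3. The share of LOCs was 17.9% (6.06 to 36.9), equal to that of Gata2.

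Tbx20 (ENSMUSG00000031965, minus strand of chromosome 9, bases 24718138 to 24774303) is a T-box gene of cranial motor neurons and the heart. It was listed in 4 LOCs at 2, 26, 64 and 102 TPM, an estimated 12, 338, 630 and 585 reads, and in no pLSO. Rounding could hide up to 18.2 reads in a pLSO listed at 0, and 3 of the 4 LOCs were above that number. Negative control NC8 stood at 1 TPM, about 1 read. The share of LOCs was 14.3% (4.03 to 32.7). Of the 4 neurons, cell_61 also had Nkx6-1, cell_67 also had Gata2, and cell_64 had no other member.

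The other T-box genes were rarely listed. Tbx2 (ENSMUSG00000000093) was listed at 56 TPM in the LOC cell_86 and at 111 TPM in the Onset neuron cell_5, and each value was 1 read. Tbx3 (ENSMUSG00000018604) was at 0 in all 80 neurons, which by the exact interval allows a share of up to 12.3% of LOCs and 6.85% of pLSOs. It stood at 1786 TPM, or 9 reads, in negative control NC9. The antisense gene Tbx3os1 was at 0 in all neurons.

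Phox2a (ENSMUSG00000007946, chromosome 7), which specifies oculomotor and noradrenergic neurons, was listed in a single neuron, the Sustained neuron cell_50, at 7 TPM or 1 read.

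Lhx4 (ENSMUSG00000026468, minus strand of chromosome 1, bases 155698031 to 155751684), a LIM homeobox factor like Isl1, was listed in 3 LOCs at 1, 168 and 182 TPM, and in 5 pLSOs. Among pLSOs it stood at 6 TPM in 1 of 41 Onset neurons and at 1, 1, 6 and 55 TPM in 4 of 11 Sustained neurons. The shares were 10.7% (2.27 to 28.2) of LOCs, 2.44% (0.0617 to 12.9) of Onset neurons and 36.4% (10.9 to 69.2) of Sustained neurons. At 5 or more reads, 2 LOCs, 1 Onset neuron and 2 Sustained neurons remained, since 3 of the values were 1 or 2 reads. The intervals of Onset and Sustained neurons overlapped, and the difference was not tested. The high LOCs, cell_71 and cell_75, both lacked Gata3, and cell_71 lacked Isl1 too.

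Read neuron by neuron, all 28 LOCs had at least 1 member, with a median of 2 and at most 4. In pLSOs, 11 of 52 had any (21.2%, 11.1 to 34.7). At 5 or more reads, 27 of 28 LOCs (96.4%, 81.7 to 99.9) and 4 of 52 pLSOs (7.69%, 2.14 to 18.5) had any. The LOC that dropped out was cell_76, whose only member was 1 read of Gata3 and which lacked LOC markers. The other library without markers, cell_57, held Gata3 at 903 TPM, or 375 reads. Among Onset neurons 5 of 41 had a member at 1 TPM, and among Sustained neurons 6 of 11, of which 1 and 3 remained at 5 reads. Cells with 4 members were cell_61, cell_67, cell_73 and cell_86.

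**Figure D4:**
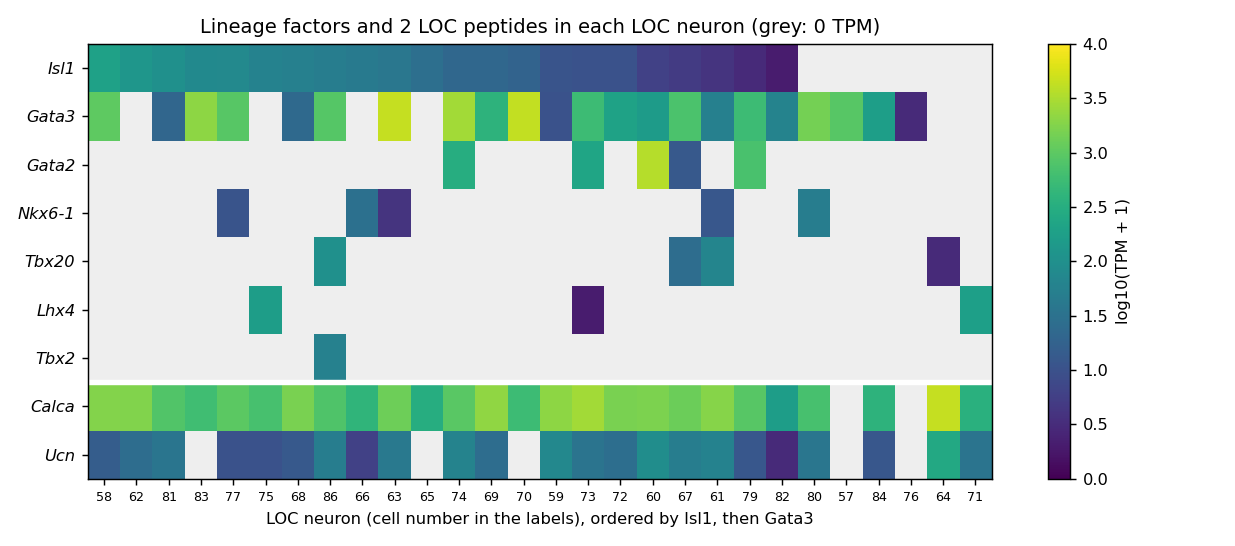
The 28 LOCs as columns, ordered by Isl1 and then Gata3, with the colour of each cell giving log10(TPM + 1) as deposited and grey a value of 0, for 7 members and, below the white line, the peptide genes Calca and Ucn. All 22 LOCs with Isl1 also hold Calca, Gata2 appears in 5 LOCs that also hold Isl1 and Gata3, and cell_57 and cell_76 lack both peptides.

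The members were set beside genes of LOC output. All 22 LOCs with Isl1 had Calca, which encodes the peptide CGRP, and 4 of the 6 LOCs without Isl1 had it. For Gata3, 20 of the 22 LOCs with it had Calca, and so did all 6 without it. Ucn was in 19 of 22 LOCs with Isl1 and in 4 of 6 without. Chat, the acetylcholine-synthesising enzyme, was found in 5 LOCs, all of which had Isl1 and 4 of which had Gata3. Slc5a7 was in 14 of the 22 LOCs with Isl1 and in 1 of 6 without, and in 11 of 22 LOCs with Gata3 and 4 of 6 without. Ddc, which makes dopamine from L-DOPA, was in 8 of 22 LOCs with Isl1 and 1 of 6 without, and the same numbers held for Gata3. These counts are small and were not tested.

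Recordings of LOCs with and without the factors overlapped in every feature examined. The input resistance was 58.8 to 903.9 MOhm (median 551.7) in 21 LOCs with Isl1 and 196.1 to 797.4 MOhm (median 460.4) in 6 without. The first spike came after 3.7 to 76.6 ms (median 19.9) with Isl1 and after 4.4 to 90.7 ms (median 18.15) without. For Gata3 the latencies were 3.7 to 76.6 ms (median 14.05) in 22 LOCs with it and 11.8 to 90.7 ms (median 46.55) in 6 without. The correlation of log2(TPM + 1) of Gata3 with latency was -0.29 (Pearson) and -0.18 (Spearman) over 28 LOCs, and -0.14 without the 2 neurons farthest from the median latency. The 5 LOCs with Gata2 all had a rheobase of 0 pA, where the 23 others ranged from 0 to 300 pA with a median also at 0. Detected genes, a measure of library yield, were 1585 to 4408 (median 2344) in LOCs with Isl1 and 1175 to 3737 (median 2722) in those without, the lower median being that of LOCs with Isl1. For Gata3 the medians were 2526 with it and 2112 without; their part in the result was not tested.

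Other genes of the same programmes were counted from lists. Of 13 further lineage factors, 5 were at 0 in all neurons, namely Lhx3, Mnx1, Nkx2-2, Nkx2-9 and Hoxb1, and none was called higher in LOCs by either rule. Onecut2, a cut homeobox factor, was called higher in pLSOs by its share, being in 17 of 52 pLSOs and 2 of 28 LOCs. Isl2, the paralog of Isl1, was in 2 LOCs, both with Isl1 and Gata3, and in no pLSO. Of 26 paralogs of the members, 16 were at 0 in all neurons, among them Gata1, Gata5 and Gata6. Only 2 of the 26 passed the 5% minimum, and none was called by its share. Lhx9, a LIM homeobox gene of commissural neurons, was in 11 of 52 pLSOs and 1 of 28 LOCs, a difference of -17.6 points, and was called higher in pLSOs by the second rule with a mean log2 difference of -1.36. Among 15 proteins that partner with LIM, GATA or homeodomain factors, Lmo1, a LIM-only protein, was called higher in LOCs (10 of 28 against 4 of 52), and Meis2, a TALE homeobox factor, was called higher in pLSOs (32 of 52 against 7 of 28), both by share and by the second rule. Ssbp2, a cofactor of LIM complexes, was called in LOCs by the second rule alone, with a mean log2 difference of 1.33. The GATA cofactors Zfpm1 and Zfpm2 were in 2 and 5 LOCs, and in 0 and 4 pLSOs.

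Of 7 cholinergic and motor effector genes, 5 were called higher in LOCs by their share and all 7 by the second rule. Calca was in 26 of 28 LOCs against 15 of 52 pLSOs, Calcb in 15 against 1, Slc5a7 in 15 against 3, Ret, a receptor of GDNF family ligands, in 11 against 1, and Prph, the neurofilament peripherin, in 10 against 3. Chat was in 5 LOCs and no pLSO, a difference of 17.9 points that did not reach 25. Ache, which breaks down acetylcholine, was in 18 LOCs and 29 pLSOs, with a mean log2(TPM + 1) higher by 2.58 in LOCs. The median difference of this list was 37.4 points, beside -2.20 over all genes tested. The list holds genes already known to differ in these neurons, so its direction is no independent evidence. Slc18a3 was not analysed here.

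Genes of other cell types were read as a check, since Gata2, Gata3, Tbx2, Tbx3 and Tbx20 are also expressed outside neurons. Of 5 endothelial markers, which matter for Gata2, Kdr was at 0 in all neurons, Cldn5 was in 0 LOCs and 1 pLSO, Flt1 and Tek were each in 0 LOCs and 2 pLSOs, and Pecam1 was in 5 LOCs (mean 19.4 TPM), 10 pLSOs (mean 0.385 TPM) and 2 negative controls. The summed level had a median of 0 TPM in both classes, with highest values of 533 TPM in LOCs and 31 TPM in pLSOs. The 4 mural markers were at 0 in all LOCs. Gata1, the erythroid GATA factor, was at 0 in all neurons, while Hbb-bs, a globin, was in 17 of 28 LOCs and 20 of 52 pLSOs, and Hba-a1, another globin, in 14 of 28 LOCs and 31 of 52 pLSOs. The 5 oligodendrocyte markers summed to a median of 161.5 TPM (1 to 4230) in LOCs, 87.5 TPM (0 to 4767) in pLSOs and 3044 TPM (385 to 7439) in negative controls. Their part in the shares of the members was not tested.

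Finally, the genes whose log2(TPM + 1) ran most like each member were ranked by Pearson r, among genes detected in at least 5 neurons. Over the 80 neurons the nearest to Isl1 were Calca (0.78), Col4a3 (0.72), Anxa2 (0.67), Ccdc141 (0.65) and Slc5a7 (0.64). For Gata3 they were Calca (0.69), Col4a3 (0.68), Nfia (0.63), Atp8a1 (0.60) and Anxa2 (0.59), so that Calca, Col4a3 and Anxa2 were on both lists. For Gata2 they were Baiap3 (0.83), Yipf2 (0.67), Gm9761 (0.64), Dusp26 (0.62) and Chrna3 (0.57). Like Gata2, Baiap3 was listed in 5 LOCs and no pLSO. Chrna3, a nicotinic receptor subunit, was listed in 7 LOCs and no pLSO. For Nkx6-1 they included Cpne7 (0.65), Trerf1 (0.60), Ccdc28a (0.59) and E130307A14Rik (0.57), and for Lhx4 they were Ganc (0.63), Dusp16 (0.62), Socs6 (0.58), E130308A19Rik (0.57) and Ypel2 (0.56).

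Over the 28 LOCs alone, none of the 5 genes nearest to Isl1 or Gata3 was a LOC marker. For Isl1 they were Ank2 (0.53), Pde10a (0.52), Minos1 (0.52), Ccl27a (0.49) and Mir99ahg (0.48), and for Gata3 Syngr1 (0.66), Map1lc3b (0.65), Scg3 (0.61), Ptp4a1 (0.61) and Ndufa12 (0.58). For Gata2 they included Gm9761 (0.95), Baiap3 (0.81), Ptk2 (0.79) and Clybl (0.72), and for Nkx6-1 they were Ccdc28a (0.85), Stau1 (0.78), Dhx30 (0.73), Asah1 (0.71) and Usp21 (0.69). With 5 neurons above 0, each of the latter coefficients rests on a handful of points. All coefficients were picked as the highest of 9451 genes over 80 neurons and of 5339 genes over 28 LOCs, the points share library depth, and they are descriptions.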

How the data were processed

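Single-neuron Patch-seq libraries, made after Smart-seq2 without strand information, were trimmed by the authors with Trim Galore 0.4.2, aligned to mm10 with STAR, treated with Picard 1.115 and summarised per gene with featureCounts. The deposited score values are TPM rounded to whole numbers; each library sums to between 999773 and 1000026. The study names an older Gencode release; names, positions and exon lengths here come from Gencode vM21 (GRCm38), with a length for 37570 genes. The value of 1 read per library and a non-decreasing whole-number divisor per row were fitted to the low values of the first 13000 rows, the divisor of later rows was extrapolated, and reads were estimated from them. Rescaled values are estimated reads over exon length minus 80 bases, scaled to TPM. The fits and the class comparison were tested on simulated data. The simulated divisors were far smaller than those of Lhx4 (84), Tbx20 (320), Nkx6-1 (397) and Isl1 (565). That test therefore does not bear on the estimated reads of these genes. Reads are not molecules, since PCR copies have no molecular identifiers.

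Genes were called at 25 percentage points of share or 1 unit of mean log2(TPM + 1), among genes in at least 5% of 80 neurons. Named genes were the 9 members, the called genes of each list, up to 3 in each direction, every gene of lists of 8 or fewer, and the 5 genes most like a member found in at least 5 neurons; Isl2, Lhx9, Zfpm1, Zfpm2 and genes named as listed at 0 were chosen after their values were seen. A few genes that this rule names are not reported here. The members and lists were chosen with earlier results of these data known. The 8 libraries left out rest on an earlier check of labels, not repeated here. The work ran in SciPy 1.17.1, NumPy 2.4.6 and pandas 2.3.3 under Python 3.11.15, with plots from matplotlib 3.10.9.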

Additional observations from a re-analysis of the deposited data

Results flagged for a closer look

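In the 8 negative controls, 3 members had a highest value that stood apart from the other 7 controls, by a gap above 0.526 of the range: Tbx3 at 1786 TPM in NC9, Gata3 at 39 TPM in NC8 and Tbx20 at 1 TPM in NC8. All other controls were at 0 for these genes. Where 7 of 8 values are 0, any value above 0 stands apart by this measure, so the usual rate of about 1 in 20 by chance does not apply. The 3 values correspond to about 9, 1 and 1 reads.

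Several libraries outside the comparisons held a member above its level in the negative controls. The LOC libraries cell_78 and cell_85 held Isl1 at 17 and 60 TPM, an estimated 37 and 53 reads, and cell_85 also held Lhx4 at 130 TPM. Lhx4 was also at 158 TPM in the negative control NC5, an estimated 79 reads, and at 14 TPM in cell_54. The latter is labelled as a Sustained neuron but held Calca at 1887 TPM, Ucn at 28 TPM and Col4a3 at 120 TPM, with no Isl1 and no Gata3. Gata3 was at 191 TPM, an estimated 87 reads, in cell_39, labelled as an Onset neuron, which is more than in any Onset or Sustained neuron kept.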

How the results depend on the processing

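Isl1 and Gata3 were the members called higher in LOCs under all 8 alternatives: detection at 5 or 10 TPM, all 86 labelled neurons (30 LOCs, 56 pLSOs), neurons with 2000 to 4000 genes, LOCs against Onset neurons alone and, added after the data were seen, 5 or more estimated reads, rescaled values and LOCs without cell_57 and cell_76. At 10 TPM the share of LOCs with Isl1 fell to 53.6% and the LOCs with both factors to 10. At 5 or more reads the share of pLSOs with Gata3 fell to 1.92%. For Isl1 neither this cut nor rescaling could change the shares. Its listed values in LOCs rested on at least 11 reads, and values of 0 stay at 0. Rescaling raised the mean of Isl1 in LOCs to 356.6 and its mean log2 difference to 6.12. The other 69 alternatives of the main results moved by less than the counting interval, 1 SD over neurons or, for counts, 1.5 times; no called difference changed sign. By the mean log2 rule, the calls of Gata2, Nkx6-1 and Tbx20 depended on the pseudocount and the scale, as given in the report. Counting genes in at least 1 neuron (15566) could not change the 186 genes called higher in LOCs, since these already pass the 5% minimum. Their share fell from 1.8% to 1.19%. The genes most like a member changed with the measure: of the top 5 by Pearson r, 0 to 3 were also in the top 5 by Spearman's rho or the phi coefficient. No paired analysis was possible because the replicate numbers only name neurons in accession order. Leaving out each neuron in turn was not done, since neurons are not replicates; means are given without the highest neuron instead. The depth limits Isl1 in pLSOs, where up to 32.1 reads could be hidden by rounding. For Nkx6-1 and Tbx20 up to 22.55 and 18.2 reads could be hidden there.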
